A study of Mus musculus with 48 samples.

Results

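The arcuate nucleus of the hypothalamus was compared during the dark phase between mice whose hepatocytes were targeted for loss of both REV-ERB receptors (HepDKO) and Control mice. The comparison took 12 of the 48 libraries of the series: Control and HepDKO at ZT16 and at ZT22, where ZT is zeitgeber time, the hours since the lights came on, with 3 libraries in each of the 4 groups. All animals in both genotypes were males of strain C57Bl/6J with the genotype Reverb a/b fl/fl, aged 10 to 12 weeks, fed chow and kept at 27 C in 12 h of light and 12 h of dark. They had received a tail vein injection of virus at 6 to 10 weeks of age, AAV8-TBG-EGFP for Control and AAV8-TBG-Cre for HepDKO, and were killed 2 to 4 weeks later. TBG stands for the thyroxine-binding globulin promoter, which directs Cre to hepatocytes, and Control mice carried the same floxed alleles and received a virus of the same kind. Each library was made from pooled micropunches, from 3 mice by one label and from 3 to 4 by another. Nothing else says how the pools relate, so a p-value here measures the spread between pooled libraries. The series asks whether the liver clock signals through vagal afferents to shape the daily pattern of feeding. The comparison described here covers arcuate RNA in the phase when mice eat most.

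REV-ERBα and REV-ERBβ, the products of Nr1d1 and Nr1d2, are heme-binding nuclear receptors that repress Arntl (BMAL1) and other clock and metabolic genes. The arcuate nucleus holds intermingled neurons of opposite action on feeding: AgRP neurons, which make Agrp and Npy and promote eating, and POMC neurons, which make Pomc and often Cartpt and restrain it. Both read leptin, insulin, ghrelin and nutrient cues, and the nucleus borders the median eminence, where tanycytes and leaky capillaries meet the blood.

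The 12 libraries held 15483922 to 18180348 counts. No library repeated another of its group, since the counts of replicates differed by more than sampling noise (chi-square divided by its degrees of freedom, 2.89 to 20.31). All 11 markers of arcuate neurons were measured, with a summed level of 482 to 657 CPM (read counts scaled to a library total of 1000000) in Control, and 448 to 499 CPM at ZT22 and 516 to 547 CPM at ZT16 in HepDKO. Markers of neighbouring nuclei, which the punch can include, summed to 382 to 1118 CPM in Control and 279 to 675 CPM in HepDKO. Hepatocyte markers summed to at most 15.96 CPM in Control and 11.77 CPM in HepDKO, and the haemoglobin genes Hba-a1, Hba-a2, Hbb-bs and Hbb-bt were listed at 0 throughout. 2 Control libraries stood apart on the leading principal components. Control ZT22 replicate 1 lay at 34.81 on the first principal component, which held 17.5% of the variance, and the other 11 lay between -16.5 and 9.704. It had the highest value of the 12 for 17.7% of all genes and the lowest for 17.2%, and the highest for 7 of 8 oligodendrocyte markers (a sum of 5987 CPM, beside at most 5026 CPM in the others). Control ZT16 replicate 1 lay lowest on that component and highest on the second (21.29, 12.9% of the variance). It held the sum of 1118 CPM of neighbouring-nucleus markers, with Avp at 475 CPM (the others 12.2 to 270.1), Oxt at 331 CPM (21.97 to 140.2) and Vip at 20.3 CPM (at most 1.914). Control ZT16 replicate 2 was lowest of the 12 for 8 of 8 oligodendrocyte markers (a sum of 2968 CPM, beside at least 3845 CPM in the others). It was highest for 9 of 16 heat-shock genes and 10 of 20 endoplasmic reticulum stress genes, beside 7.86% of all genes. In tissue punches, fewer cells of a type and less RNA per cell cannot be told apart.

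No single gene passed the test between HepDKO and Control in the dark phase. Of 15734 genes tested with time point as a covariate, 0 (0%) passed an adjusted p of 0.05 (edgeR, quasi-likelihood; Benjamini-Hochberg), and the lowest adjusted p was 0.932. At an unadjusted p under 0.05 there were 765 genes (4.86%), of which 364 (2.31%) were higher and 401 (2.55%) lower in HepDKO. DESeq2 passed 2 genes, Ppfia4 and Mir6236, and had 716 at an unadjusted p under 0.05, while limma-voom passed 0 and had 772. With each library left out in turn, the share of all genes at an unadjusted p under 0.05 ran from 3.69% to 6.34% (1.81% to 3.13% higher, 1.88% to 3.31% lower). Without Control ZT22 replicate 1, edgeR passed 1 gene, Hpca, a neuronal calcium sensor, with a log2 fold change of 0.26 and an adjusted p of 0.0406.

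The estimates had narrow intervals. The median log2 fold change was -0.0023, the central 90% of genes lay between -0.23 and 0.21, and the median standard error was 0.0730. For 13361 genes (84.9%) the whole 95% confidence interval lay within 1.5-fold in either direction, and 190 genes had an estimate beyond 1.5-fold. All 6 HepDKO libraries lay above all 6 Control libraries for 17 genes (0.108%) and below them for 12 (0.0763%). The first set included 1700123M08Rik, Cenps, Fbxo31, Gga1, Gm19345, Gng13, Hdhd3, Hsd17b10, Htr7, Lurap1, Mak16, Ndp, Parvg, Ppfia4, Sh3bp5l and Ube2o. Htr7 encodes a serotonin receptor. The second was Btg2, Bvht, Fam43a, Hnrnpa3, Lrig3, Muc1, Orc4, Prtg, Rab11fip1, Sgk1, Smim11 and Trim34a. With the 3 libraries of each group taken by time point, HepDKO lay above Control at ZT16 for 4.73% of genes and below for 4.78%, at ZT22 for 4.11% and 4.37%, and in the same direction at both times for 0.305% and 0.318%. Statements on overlap below are to be read against these shares.

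Nr1d1 and Nr1d2, the targeted genes, had overlapping levels in arcuate tissue of both genotypes, where the labels place no deletion. Nr1d1 was at 43.7, 37.0 and 33.7 CPM in Control and 41.0, 38.3 and 39.4 CPM in HepDKO at ZT16, and at 37.9, 37.5 and 41.5 CPM and 38.5, 35.9 and 39.0 CPM at ZT22. Its log2 fold change was 0.0035 (SE 0.0588, 95% interval -0.12 to 0.13). Nr1d2 had a log2 fold change of -0.055 (SE 0.0638, 95% interval -0.19 to 0.079), with libraries of both genotypes overlapping at both times, and of -2.3e-05 without Control ZT22 replicate 1. These values come from tissue that was not targeted and do not check the deletion in liver.

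The feeding neuropeptides did not pass the test in either direction, with estimates near 0 for Agrp and below 0 for Pomc. Agrp, the melanocortin antagonist, was at 18.8, 19.4 and 19.0 CPM in Control and 18.9, 22.4 and 13.4 CPM in HepDKO at ZT16. At ZT22 the Agrp values were 14.6, 15.8 and 19.9 CPM and 17.3, 15.9 and 21.2 CPM. The genotypes overlapped at both times, with a log2 fold change of 0.022 (SE 0.113, 95% interval -0.22 to 0.26). Npy, the orexigenic peptide of the same neurons, had a log2 fold change of -0.10 (SE 0.114) and ranged from 34.2 to 51.3 CPM in HepDKO against 37.7 to 54.7 CPM in Control. Both 95% intervals lay within 1.5-fold.

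Pomc, the precursor of the melanocortins, was the feeding gene with the lowest estimate. Control libraries held 107, 59.9 and 75.4 CPM at ZT16 and 67.8, 104 and 64.6 CPM at ZT22. HepDKO libraries held 63.1, 73.2 and 73.0 CPM at ZT16 and 45.7, 48.4 and 51.7 CPM at ZT22. The groups overlapped at ZT16, whereas every HepDKO library lay below every Control library at ZT22, and 2 Control libraries, ZT16 replicate 1 and ZT22 replicate 2, were above 100 CPM. The log2 fold change was -0.45 over the dark phase (SE 0.181, unadjusted p = 0.0335) and -0.70 at ZT22 (unadjusted p = 0.0199), with adjusted p of 0.932 and 0.999 in edgeR's test. The difference between the time points had an unadjusted p of 0.189. The 2 high libraries were also unlike the rest in some markers of nuclei beside the arcuate. Of 6 ventromedial markers, Control ZT16 replicate 1 was highest of the 12 for 3 and lowest for 0, and Control ZT22 replicate 2 was highest for 2 and lowest for 0. Of 11 markers of other neighbouring nuclei, the first was highest for 3 and lowest for 1 (Foxb1), and the second was highest for 2 and lowest for 0. Without Control ZT16 replicate 1 the dark-phase log2 fold change of Pomc was -0.37 (unadjusted p = 0.0889), and without Control ZT22 replicate 2 it was -0.31 (unadjusted p = 0.0506). Over all 12 single omissions it ran from -0.56 to -0.31, with an unadjusted p above 0.05 in 6.

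Cartpt, which encodes the anorexigenic peptide CART, had a lower estimate at ZT22 than at ZT16. It was at 116, 127 and 101 CPM in Control and 104, 91.9 and 92.6 CPM in HepDKO, with 1 HepDKO library above the lowest Control library. At ZT16 it was at 109.7, 120.2 and 105 CPM and 121, 107 and 112 CPM. Its log2 fold change was -0.26 at ZT22 (unadjusted p = 0.00444) and 0.016 at ZT16, and the difference between these had an unadjusted p of 0.0249. With each library left out in turn, the dark-phase estimate of Cartpt had a lowest value of -0.16 (unadjusted p = 0.0235), without HepDKO ZT16 replicate 1. The highest was -0.069 (unadjusted p = 0.236), without Control ZT22 replicate 2. Summed arcuate neuron markers, a list that includes both genes, were at 482 to 641 CPM in Control and 448 to 499 CPM in HepDKO at ZT22, and the 482 CPM was Control ZT22 replicate 1. At ZT22 3 of the 11 were lower at an unadjusted p under 0.05, beside 2.07% of all genes, with a median of -0.093. Without that library 5 of 11 were, beside 2.43%, with a median of -0.25, and over the dark phase 11 of 11 estimates were negative. Whether the amount of arcuate nucleus in the punches has a part in these values was not tested.

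Across the feeding-circuit list 27 of 28 genes were tested, 1 was higher and 2 were lower at an unadjusted p under 0.05 (11.1%, beside 4.86% of all genes), and the median log2 fold change was -0.083 beside -0.0023 over all genes. Without Control ZT22 replicate 1 these counts were 2 and 5 (25.9%, beside 6.34% of all genes), and without HepDKO ZT22 replicate 3 they were 1 and 0, beside 4.47%. Crabp1, a retinoic acid binding protein, was the member with the higher value (log2 fold change 0.32, unadjusted p = 0.00758). Pcsk1, the convertase that cleaves POMC, was lower beside Pomc (log2 fold change -0.12, unadjusted p = 0.0413, and 0.1 without Control ZT22 replicate 1), and Mc3r, a melanocortin receptor, had a log2 fold change of -0.19 (unadjusted p = 0.056). For 23 of the 27 genes the interval lay within 1.5-fold. The plot of intervals sets these genes beside the clock genes.

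**Figure D1:**
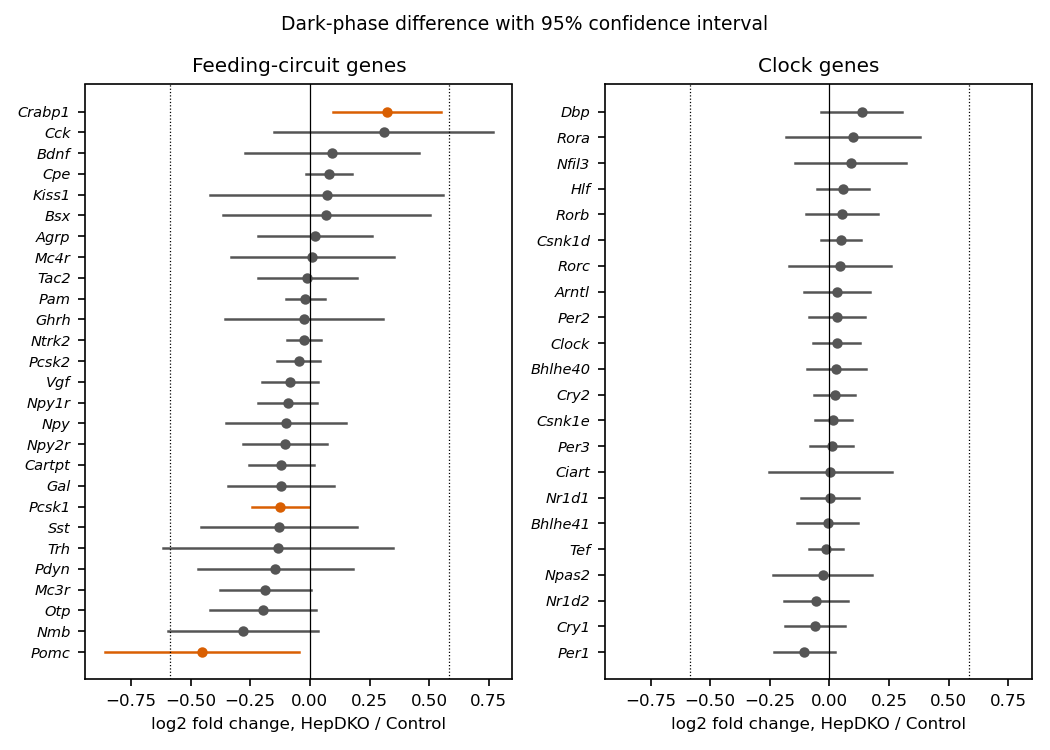
Log2 fold change (HepDKO over Control, dark phase, points) with 95% confidence interval (lines) for 27 feeding-circuit genes and 22 clock genes. Orange marks an unadjusted p under 0.05, grey the rest, and dotted lines mark 1.5-fold; Pomc has the lowest estimate, and all 22 clock genes lie inside the dotted lines.

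Receptors through which the arcuate nucleus reads hormones had small estimates of both signs. Of 26 tested, 1 was higher and 4 were lower at an unadjusted p under 0.05 (19.2%, beside 4.86% of all genes), with a median log2 fold change of -0.023. Without HepDKO ZT16 replicate 1 the count was 1 in all, beside 4.58% of all genes. Ramp2, a partner of calcitonin-family receptors, was at 11.9, 9.62 and 10.3 CPM in Control and 6.72, 7.30 and 7.27 CPM in HepDKO at ZT22, without overlap, and at 9.45, 9.45 and 9.28 CPM and 8.75, 9.89 and 8.24 CPM at ZT16, with overlap. Its log2 fold change was -0.58 at ZT22 (unadjusted p = 0.000221, adjusted p = 0.999 in edgeR's test). Ghsr, the ghrelin receptor, had a log2 fold change of -0.22 (unadjusted p = 0.0497), and of -0.12 (unadjusted p = 0.205) without Control ZT22 replicate 1. Fgfr1 and Ghr, receptors for fibroblast growth factors and growth hormone, had log2 fold changes of -0.10 and -0.15, and Thra, a thyroid hormone receptor, of 0.092. Lepr, the leptin receptor, had a log2 fold change of -0.012 (95% interval -0.22 to 0.20), and Insr, the insulin receptor, of -0.025 (95% interval -0.12 to 0.069).

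Clock genes of the arcuate nucleus had near equal levels in both genotypes. None of the 22 clock genes had an unadjusted p under 0.05 in the dark-phase comparison, the median log2 fold change was 0.025, and all 22 intervals lay within 1.5-fold. Arntl, a target that REV-ERB represses, was at 25.4, 29.3 and 23.9 CPM in Control and 27.8, 28.2 and 24.5 CPM in HepDKO at ZT16, and at 34.7, 28.8 and 32.0 CPM and 30.2, 35.9 and 31.6 CPM at ZT22. Genotypes overlapped at both times, and the log2 fold change was 0.033 (95% interval -0.10 to 0.17). Per1 had the lowest unadjusted p of the list at 0.1 (log2 fold change -0.11), followed by Dbp at 0.118 (log2 fold change 0.13). In a window of 250 bases before the start sites, the REV-ERB half-site AGGTCA was found on either strand in 4 of the 18 clock genes with a window (Clock, Nfil3, Nr1d2 and Per1), beside 15.8% of all 27025 genes with a window. The E-box CACGTG was found in 5 of the 18 (Bhlhe41, Ciart, Cry1, Per1 and Tef), beside 6.86% of all genes.

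The genes of lowest p in the dark phase are described next, although none of them passed the adjusted threshold in edgeR's test (adjusted p = 0.932 for each). Ppfia4, a liprin of the presynaptic active zone, had the lowest p. It was at 116, 128 and 124 CPM in Control and 140.3, 143 and 140.3 CPM in HepDKO at ZT16, and at 133, 131 and 132 CPM and 141, 150.3 and 152 CPM at ZT22. All 6 HepDKO libraries lay above all 6 Control libraries, by a small margin: the log2 fold change was 0.18 (SE 0.0369, unadjusted p = 6.91e-05), and DESeq2 gave it an adjusted p of 0.00758.

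Ndp, which encodes norrin, a ligand of the Wnt receptor Frizzled in vessels, was at 4.56, 3.91 and 4.77 CPM in Control and 6.55, 5.66 and 6.66 CPM in HepDKO at ZT16. At ZT22 its values were 4.67, 4.41 and 4.70 CPM and 5.22, 6.93 and 6.00 CPM, so that all HepDKO libraries again lay above all Control libraries (log2 fold change 0.45, SE 0.113). Wnt7b, a Wnt ligand, had a log2 fold change of 0.21, mostly from ZT22 (0.29, against 0.13 at ZT16). Zfp618, a zinc finger protein, had a log2 fold change of 0.32 with nearly equal estimates at both times. The estimates of Adra2b, an α2-adrenergic receptor, and Eid3 were large (1.12 and 1.32), but these genes were at no more than 2.35 CPM in any library. Gtpbp2, Elfn2, Ankrd52, Rnf213 and Ptp4a3 completed the 12 highest by p, with log2 fold changes from 0.15 to 0.31.

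Mir6236 had the highest estimate among genes with a mean above 10 CPM. It was at 15.6, 22.1 and 24.1 CPM in Control and 40.2, 46.1 and 27.2 CPM in HepDKO at ZT16, and at 10.4, 16.6 and 11 CPM and 20.1, 27.9 and 23.5 CPM at ZT22. Genotypes did not overlap at either time, and the log2 fold change was 0.89 (SE 0.175, unadjusted p = 0.000434), with an adjusted p of 0.00758 in DESeq2. The mature sequence lies on chr9:110281353-110281371 of GRCm38.p6, plus strand, inside the lncRNA Gm39429 (chr9:110266638-110282670) of the RefSeq annotation. The labels name no selection of small RNA and no strand, so these counts cannot be told apart from fragments of longer RNA. The mature sequence (RefSeq, seed bases 2 to 8 in capitals) is shown because the symbol stands for a short GC-rich stretch, 78.9% G or C.
Mir6236 mature: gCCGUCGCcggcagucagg
The symbols Rn45s, Lars2 and Mir6236, grouped here as ribosomal RNA-like, summed to 43210 to 78210 CPM in Control and 52370 to 73230 CPM in HepDKO, overlapping. Their part in the Mir6236 difference was not tested.

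Among the genes with lower values, Btg2 had the lowest p. Btg2 is an antiproliferative gene induced early by neuronal activity and stress. It was at 17.2, 17.1 and 17.6 CPM in Control and 14.1, 12.9 and 14.8 CPM in HepDKO at ZT16, and at 17.8, 16.7 and 16.8 CPM and 14.3, 15.1 and 13.2 CPM at ZT22. All HepDKO libraries lay below all Control libraries (log2 fold change -0.29, SE 0.0677, unadjusted p = 0.000307). Smim11, a small membrane protein, did not overlap either (log2 fold change -0.34), with 8.93, 8.29 and 7.77 CPM and 6.96, 8.29 and 7.90 CPM in HepDKO against 9.98, 9.80 and 10.3 CPM and 11.5, 10.4 and 8.95 CPM in Control.

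The other genes of this direction included 2 of iron and lipid handling. Cp, the ferroxidase ceruloplasmin, had a log2 fold change of -0.35, and Cept1, an enzyme of phospholipid synthesis, of -0.18. Bcl6, a transcriptional repressor, had -0.28, Deptor, an inhibitor of mTOR, had -0.18, and Serpinf1, the secreted factor PEDF, had -0.38, all as log2 fold changes. Gtf2a1, Commd10 and Cd164 had log2 fold changes from -0.27 to -0.15. The transcript 1700112J16Rik had -0.65, the largest estimate of the 12, and Ccn2, a matricellular protein, had -0.46. The plot of single libraries shows both sets of 12 genes.

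**Figure D2:**
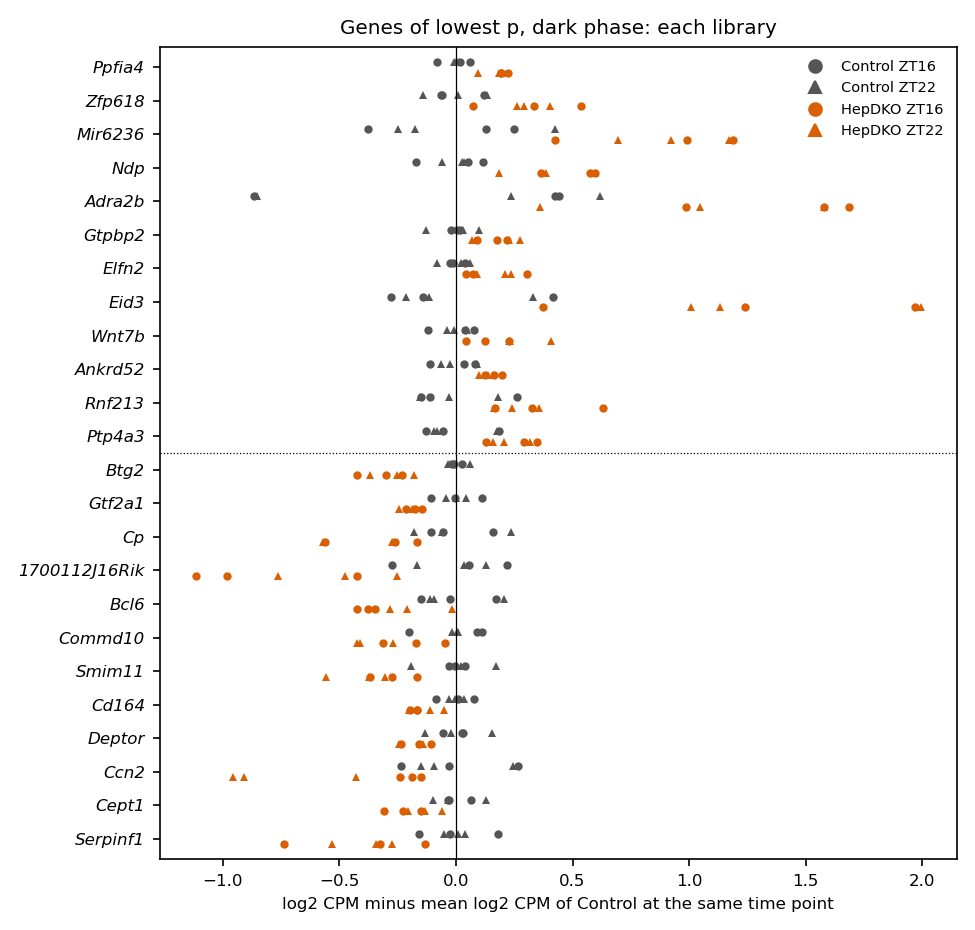
Each point is a library: its log2 CPM minus the mean log2 CPM of the 3 Control libraries at the same time point, for the 12 genes of lowest p that were higher in HepDKO (above the dotted line) and the 12 that were lower. Grey is Control and orange HepDKO, circles are ZT16 and triangles ZT22; Mir6236, Adra2b and Eid3 reach furthest to the right.

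The list of glucocorticoid-responsive genes, which corticosterone induces through its receptor, had the lowest median of the 19 pathway lists with tested members: -0.35, with 18 of 18 estimates negative and 5 lower at an unadjusted p under 0.05 (Errfi1, Map3k6, Mt1, Sult1a1 and Sgk1), beside 2.55% of all genes. Per1 belongs to this list and to the clock list. Control ZT22 replicate 1 had the highest value of the 12 for 15 of the 18 genes. Among cell type markers the same library was highest for 7 of 8 of oligodendrocytes and lowest for 0. It was highest for 3 of 8 of endothelium (among them Ly6c1 and Pecam1) and lowest for 2 (Cldn5 and Slco1a4), and highest for 1 of 10 of tanycytes (Dio2) and lowest for 5. Among neuron markers it was highest for Snap25, Syt1, Elavl4, Stmn2 and Slc17a6, among others, and lowest for Slc32a1 and Gad1. It was also highest for the astrocyte markers Aqp4, Slc1a2 and Aldh1l1 and lowest for the microglia markers P2ry12, C1qa, C1qb, C1qc and Csf1r. The part of these cells in the list's values was not tested. Without it the median was -0.16, with 17 of 18 negative and 6 lower, Sult1a1 no longer among them at an unadjusted p under 0.05, beside a median of -0.00094 and 511 lower (499 higher) over all 15919 genes tested. At ZT22 alone the median was -0.49 with that library and -0.12 without it, and at ZT16 the median was -0.17. At ZT22 6 of the 18 were lower at an unadjusted p under 0.05 with that library, beside 2.07% of all genes. Without it 1 was lower, beside 2.43%. At ZT16, with all 12 libraries, 0 were lower, beside 1.38% of all genes. The count of 5 ran from 3 (without Control ZT16 replicate 3 or HepDKO ZT22 replicate 1, where 2.29% and 2.91% of all genes were lower) to 8 (without Control ZT22 replicate 3, where 3.31% were).

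Sgk1, a kinase induced by glucocorticoids, shows the pattern. It was at 142, 44.8 and 39.7 CPM in Control and 29.2, 32.2 and 33.2 CPM in HepDKO at ZT22, and at 36.8, 36.8 and 69.8 CPM and 29.6, 35.9 and 32.6 CPM at ZT16. The highest HepDKO library lay just below the lowest Control library, and 2 Control libraries lay far above the rest. Its log2 fold change was -0.90 (SE 0.358), and -0.49 without Control ZT22 replicate 1 (unadjusted p = 0.0261). Map3k6, a stress kinase, was at 9.70, 4.52 and 2.60 CPM in Control and 1.80, 2.60 and 2.27 CPM in HepDKO at ZT22, and its log2 fold change of -0.90 became -0.56 without that library. Fkbp5, a co-chaperone of the receptor, had a log2 fold change of -0.42 with it and -0.17 without it, Tsc22d3 (GILZ) -0.40 and -0.21, Plin4 -1.04 and -0.36, and Cdkn1a -0.61 and -0.032. Mt1, a metallothionein, moved less with it (-0.20 and -0.14).

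**Figure D3:**
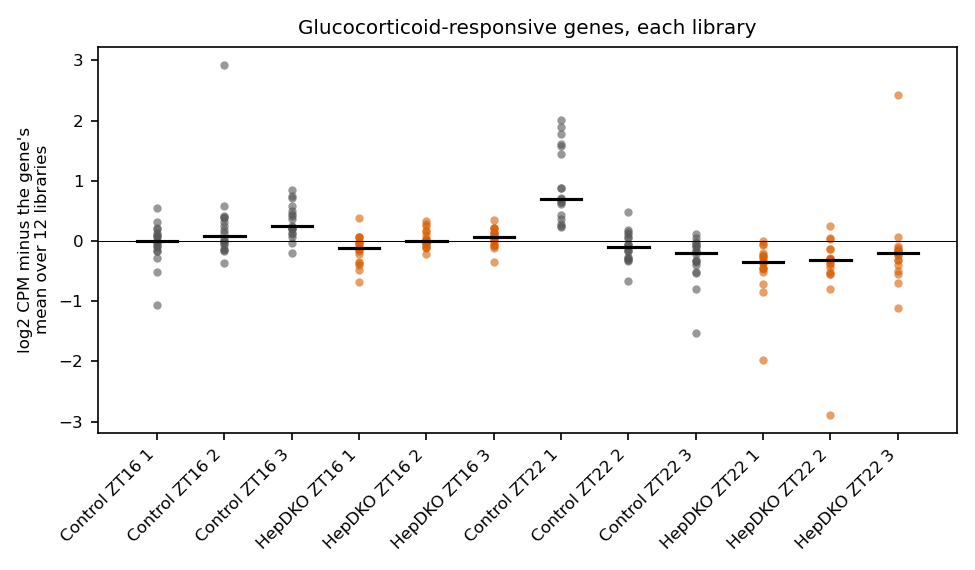
Each point is 1 of the 18 glucocorticoid-responsive genes in 1 library: log2 CPM minus that gene's mean over the 12 libraries; black bars are medians, grey is Control and orange HepDKO. The column of Control ZT22 replicate 1 stands highest, with Control ZT16 replicate 3 next.

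The glucocorticoid receptor binds DNA at inverted repeats of the half-site AGAACA. A search of 250 bases before the start sites, on both strands, found it in 3 of the 16 listed genes with a window (Sgk1, Sult1a1 and Tsc22d3), and 18.2% of all 27025 genes hold it. One window of Sgk1, chr10:21993640-21993889 on the plus strand of GRCm38.p6, held 3 matches and is shown with them in capitals (TGTTCT is the same half-site on the other strand), since 2 of them face each other 3 bases apart. This inverted repeat, AGAACA and TGTTCT with any 3 bases between, was searched after this window was seen and was in 1 of the 16 genes and in 3 of 32851 windows, or 0.0111% of all genes.
Sgk1 upstream window: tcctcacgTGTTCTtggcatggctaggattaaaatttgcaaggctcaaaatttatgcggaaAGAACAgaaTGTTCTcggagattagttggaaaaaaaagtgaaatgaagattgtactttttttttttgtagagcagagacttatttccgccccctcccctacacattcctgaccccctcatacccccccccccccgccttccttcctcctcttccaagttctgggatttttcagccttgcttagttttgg
The match of letters describes this window and not binding.

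Immediate early genes, which neuronal firing induces within minutes, had 5 of 20 lower and 0 higher at an unadjusted p under 0.05, beside 2.55% lower of all genes, with a median log2 fold change of -0.12. Beside Btg2 these were Fosb (-0.60), Egr1 (-0.20), Fos (-0.26) and Npas4 (-0.22). Fos was at 18.8, 20.9 and 22.7 CPM in Control and 20.4, 14.4 and 15.4 CPM in HepDKO at ZT16, and at 17.4, 17.4 and 22.6 CPM and 18.1, 18.5 and 13.2 CPM at ZT22, with overlap at both times. Egr1 was at 39.9, 43.2 and 45.1 CPM and 37.8, 34.4 and 34.8 CPM at ZT16, without overlap, and at 33.3, 34.8 and 42.1 CPM and 37.7, 34.6 and 28.1 CPM at ZT22, with overlap. HepDKO ZT22 replicate 3 had the lowest value of the 12 for 7 of the 20 genes (8.64% of all genes), and Control ZT16 replicate 3 the highest for 6 (8.55% of all genes). Over the 12 single omissions the count ran from 3 (without HepDKO ZT16 replicate 2 or 3, with 2.53% and 2.4% of all genes lower) to 7 (without Control ZT22 replicate 1 or HepDKO ZT22 replicate 1, with 3.21% and 2.91%), and the median from -0.14 to -0.080 (without HepDKO ZT22 replicate 3). None passed the adjusted threshold in edgeR.

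Genes of respiration and translation had estimates close to 0. Of 73 nuclear genes of oxidative phosphorylation, 56 had positive estimates and 5 were higher at an unadjusted p under 0.05 (2.31% of all genes), with a median of 0.033 and all 73 intervals within 1.5-fold. The count was 13 without Control ZT16 replicate 1 (2.75% of all genes higher) and 3 without HepDKO ZT22 replicate 1 (2.6%). Ndufa13, a subunit of complex I, was at 81.1, 74.5 and 71.5 CPM in Control and 90.9, 90.1 and 84.5 CPM in HepDKO at ZT16, without overlap, and at 67.7, 81.5 and 68.8 CPM and 81.6, 76.5 and 77.0 CPM at ZT22, with overlap. At ZT16 64 of the 73 estimates were positive and 9 genes were higher at an unadjusted p under 0.05, beside 1.49% of all genes. Of the 12 libraries, HepDKO ZT16 replicate 1 had the highest value for 28 of the 73 genes and Control ZT16 replicate 1 for 19. At ZT22 37 estimates were positive and 0 genes were higher. In the test of the difference, ZT22 minus ZT16, 3 of 73 were lower at an unadjusted p under 0.05, beside 1.25% of all genes. There 59 estimates were negative, with a median of -0.063. Without Control ZT16 replicate 1 the ZT16 count was 20 of 73, beside 421 higher and 419 lower of 15918 genes (5.28% in all). Cytosolic ribosomal protein genes had 4 of 77 higher (Rpl13a, Rpl38, Rps15 and Rpl36, the last 2 with an unadjusted p of 0.0509 and 0.0697 without Control ZT22 replicate 1) and a median of 0.019. That count ran from 1 (without Control ZT16 replicate 3, Control ZT22 replicate 3 or HepDKO ZT22 replicate 1, with 2.15%, 2.93% and 2.6% of all genes higher) to 15 (without Control ZT22 replicate 2, with 2.14%). It was 8 without Control ZT16 replicate 1 (2.75%) and 9 without HepDKO ZT22 replicate 2 (1.81%). For these 77 genes HepDKO ZT16 replicate 1 had the highest value for 31 and Control ZT16 replicate 1 for 14. Proteasome subunits had 0 of 37 in either direction.

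Genes of synapse and excitability gave small estimates of both signs. Receptor subunits for GABA and glutamate had 4 of 20 lower, among them Gabra2 (-0.12), Gabra5 (-0.14) and Gria4 (-0.10). Channel genes had 2 of 22 higher, the calcium channels Cacna1g (0.21) and Cacna1a (0.12). Synaptic vesicle genes had 1 of 20 higher, Unc13a (0.13), which primes vesicles for release. Without Control ZT22 replicate 1 the channel count was 4 of 22, without Cacna1a (unadjusted p = 0.0842), and the vesicle count was 3 of 20, beside 6.34% of all genes with such a p. Without Control ZT22 replicate 3, 5 channel genes had such a p (6.24% of all genes), and without HepDKO ZT22 replicate 1 the receptor subunit count was 7 (5.51%). In the insulin and mTOR list 2 of 20 were lower, Foxo1 (-0.16) and Sesn1 (-0.13). The endoplasmic reticulum stress list had Ddit3 (CHOP) higher (0.21) and Pdia3 lower (-0.079) of 20. One member was lower in each of the interferon list (B2m, -0.14, of 25) and the fatty acid list (Cpt1a, -0.15, of 20, with an unadjusted p of 0.0771 without Control ZT22 replicate 1). No member of the cholesterol list (20), the heat-shock list (16) or the thyroid hormone and tanycyte list (15) had an unadjusted p under 0.05. These single values are log2 fold changes over the dark phase, and each count with all 12 libraries stands beside the 4.86% of all genes with such a p. With each library left out in turn, the counts of the lists named from insulin on ran from 0 to 3.

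**Figure D4:**
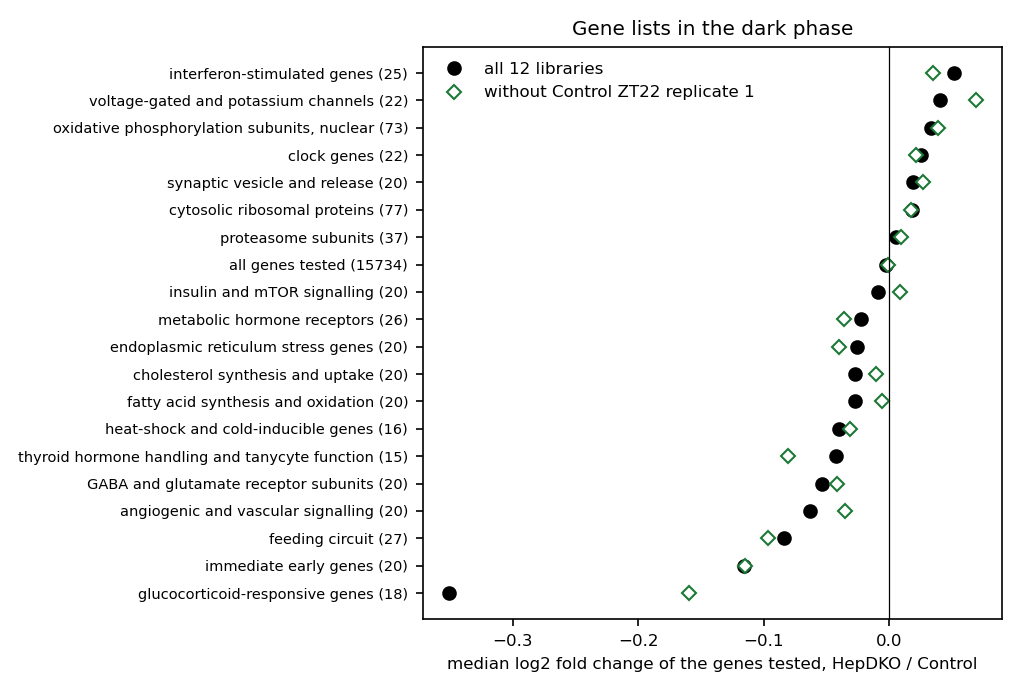
Median log2 fold change (HepDKO over Control, dark phase) of each of the 19 pathway lists and of all genes, number of genes tested in brackets, with all 12 libraries (black circles) and without Control ZT22 replicate 1 (green diamonds). The glucocorticoid list lies lowest at -0.35 and moves to -0.16 without that library, and the medians of the other pathway lists lie between -0.12 and 0.069.

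All 7 markers of pericytes and smooth muscle had negative estimates over the dark phase, and 3 were lower at an unadjusted p under 0.05, beside 2.55% of all genes: Myh11, Acta2 and Tagln, contractile proteins of smooth muscle. Myh11 was at 11.9, 11.1 and 12.6 CPM in Control and 7.30, 7.86 and 7.96 CPM in HepDKO at ZT22, without overlap, and at 6.87, 8.22 and 7.36 CPM and 5.65, 8.92 and 7.54 CPM at ZT16, with overlap. Its log2 fold change was -0.62 at ZT22 and -0.02 at ZT16, and the difference had an unadjusted p of 0.0107. Without Control ZT22 replicate 1 the ZT22 estimate was -0.62. At ZT22 Acta2 overlapped between the groups, and 3 of 7 markers had such a p, beside 2.07% of all genes. The dark-phase count of 3 was 1 without Control ZT16 replicate 1 (3.25% of all genes lower) or without Control ZT22 replicate 3 (3.31%). Meningeal and fibroblast-like markers went the same way: 7 of 7 estimates were negative, with medians of -0.18 over the dark phase and -0.30 at ZT22, beside -0.11 and -0.26 for pericytes and smooth muscle. These medians were -0.28 and -0.52, beside -0.18 and -0.34, without Control ZT22 replicate 1. None of the 7 meningeal markers had an unadjusted p under 0.05. Of 8 endothelial markers 4 were negative over the dark phase and 6 at ZT22. The pericyte genes Pdgfrb and Rgs5 had log2 fold changes of -0.11 and -0.064.

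Mfsd2a, a lipid transporter of the blood-brain barrier, was at 53.6, 38.7 and 30.2 CPM in Control and 29.1, 27.4 and 27.9 CPM in HepDKO at ZT22. Its dark-phase log2 fold change was -0.36, and -0.24 without Control ZT22 replicate 1 (unadjusted p = 0.00159). The glucose transporter Slc2a1 was at 211, 110.1 and 84.1 CPM in Control at ZT22, where replicate 1 is the high value, and at 88.3, 83.9 and 82.4 CPM in HepDKO. Both genes belong to the list of angiogenic and vascular signalling, which was mixed over the dark phase. Of its 20 genes, 1 was higher and 1 lower at an unadjusted p under 0.05 (10%, beside 4.86% of all genes). Its estimates were positive for 8 and negative for 12, with a median of -0.063. Over the whole smooth muscle and pericyte list the summed level at ZT22 was 181 to 209 CPM in Control and 160.4 to 189.8 CPM in HepDKO, and meningeal markers summed to 129.6 to 279 CPM and 133 to 238 CPM. Endothelial markers summed to 226 to 251 CPM and 203 to 228 CPM. The part of the vessel content of the punches in these values was not tested. Of the other cell type lists, 2 of 8 astrocyte markers, 2 of 11 of arcuate neurons, and 1 each of neurons (11), neighbouring nuclei (11), tanycytes (10) and microglia (10) were lower at an unadjusted p under 0.05, beside 2.55% of all genes. Without Control ZT22 replicate 1 (511 lower of 15919 genes) these were 1 of 8, 3, 3, 1, 2 and 2. With all 12 libraries none of the endothelial (8), oligodendrocyte (8), oligodendrocyte precursor (5) or ventromedial neuron (6) markers had such a p. Without Control ZT22 replicate 1, 1 oligodendrocyte precursor marker did, beside 6.34% of all genes. Without Control ZT16 replicate 3, 3 of the 6 ventromedial markers did, beside 4.43% of all genes, and without Control ZT16 replicate 2, 1 oligodendrocyte marker did, beside 5.53%.

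The time points taken one by one gave no gene past the adjusted threshold. At ZT16, 452 of 15734 genes (2.87%) had an unadjusted p under 0.05, with 1.49% higher and 1.38% lower in HepDKO. At ZT22 there were 598 (3.8%), with 1.74% higher and 2.07% lower. The test of the difference, ZT22 minus ZT16, had 343 (2.18%), with 0.928% above and 1.25% below 0. In each, 0 genes passed an adjusted p of 0.05 in edgeR. DESeq2 also passed 0 in these 3 comparisons, with 352, 493 and 243 at an unadjusted p under 0.05. The lowest p at ZT16 belonged to Fam163a, at 2.47, 2.68 and 2.92 CPM in Control and 5.24, 4.63 and 5.08 CPM in HepDKO, and to Rbbp8, a DNA end-resection factor, at 6.01, 5.02 and 5.70 CPM and 3.45, 3.72 and 3.04 CPM. Both pairs of groups were apart at ZT16 and close at ZT22 (log2 fold changes -0.094 and -0.14). Ost4, a subunit of oligosaccharyltransferase, followed with 0.46 at ZT16.

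At ZT22 the lowest p belonged to Ccn2, at 12.5, 9.51 and 9.90 CPM in Control and 5.45, 5.63 and 7.84 CPM in HepDKO, then Ramp2 and Myh11. The genotypes did not overlap there, whereas at ZT16 Ccn2 was at 15.2, 10.7 and 12.4 CPM and 10.7, 11.4 and 11.1 CPM, with overlap. For the difference between the time points the lowest p belonged to Bcl2l11 (BIM), a pro-apoptotic protein, with log2 fold changes of 0.41 at ZT16 and -0.55 at ZT22 (unadjusted p = 0.000332, adjusted p = 1 in edgeR's test). Nelfa, of the negative elongation factor, and the antisense transcript Dlx1as followed. Reads of Dlx1as cannot be told apart from those of overlapping genes where strand was not used.

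The light phase was used to ask whether anything is particular to the dark phase. In a fit of all 24 arcuate libraries, which added Control and HepDKO at ZT4 and ZT10, the test of the difference between the dark and the light effect passed 0 of 16102 genes (lowest adjusted p 0.134), with 594 (3.69%) at an unadjusted p under 0.05, 1.62% above and 2.07% below 0. DESeq2 passed 1, the transcript 1700112J16Rik, and had 545. In the light phase itself 0 passed in edgeR and 1273 (7.91%) had an unadjusted p under 0.05, 5.19% higher and 2.71% lower. Of 691 genes at an unadjusted p under 0.05 in the dark in this fit, 80 were also so in the light with the same sign and 10 with the opposite sign. Over all 16102 genes the Pearson correlation of the dark and light estimates was 0.0889. One light-phase library, HepDKO ZT10 replicate 3, held 1914 counts of Xist where the other 23 held 0 to 10, and without it the test of the difference had 585 genes at an unadjusted p under 0.05 and 0 past the adjusted threshold.

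The transcript 1700112J16Rik had the lowest p for this difference. In the dark it was at 3.76, 4.20 and 2.98 CPM in Control and 1.67, 1.83 and 2.69 CPM in HepDKO at ZT16, and at 4.23, 4.52 and 3.68 CPM and 2.43, 3.46 and 2.97 CPM at ZT22. In the light it was at 2.63, 2.96 and 2.95 CPM and 2.73, 4.38 and 4.39 CPM at ZT4, and at 2.31, 2.41 and 2.41 CPM and 3.24, 4.84 and 3.59 CPM at ZT10. HepDKO libraries lay below Control at both dark times and mostly above it at both light times. In the 24-library fit the log2 fold change was -0.66 in the dark and 0.57 in the light, a difference of -1.23 (SE 0.223, unadjusted p = 8.35e-06, adjusted p = 0.134 in edgeR's test). DESeq2 gave an adjusted p of 0.00564, and edgeR gave 0.0185 without HepDKO ZT4 replicate 1, 0.0422 without HepDKO ZT16 replicate 3 and 0.2 without HepDKO ZT10 replicate 3. Zfp618 (0.47) and Notch1 (0.32), a receptor of vessels and progenitors, had the next lowest p.

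Other genes had like or unlike estimates in the light phase. Mir6236 had a log2 fold change of 0.89 in the light beside 0.89 in the dark. Btg2 had 0.0031 in the light, Ppfia4 0.061 and Pomc 0.19. In the light 37 of 73 oxidative phosphorylation genes were higher at an unadjusted p under 0.05 (median 0.12), beside 5 in the dark and 5.19% of all genes in the light. They were not alone in this: 45 of 78 ribosomal protein genes (median 0.13) and 6 of 37 proteasome genes were also higher in the light. The test of the difference, dark minus light, gave 4 of 73, 7 of 78 and 2 of 37 lower, beside 2.07% of all genes in that test. The medians of this difference were -0.094, -0.12 and -0.071. Glucocorticoid-responsive genes had 0 of 18 at such a p in the light, beside 7.91% of all genes, and a median of -0.054. In the test of the difference 6 of 18 were lower, beside 2.07% of all genes, a comparison that includes Control ZT22 replicate 1.

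**Figure D5:**
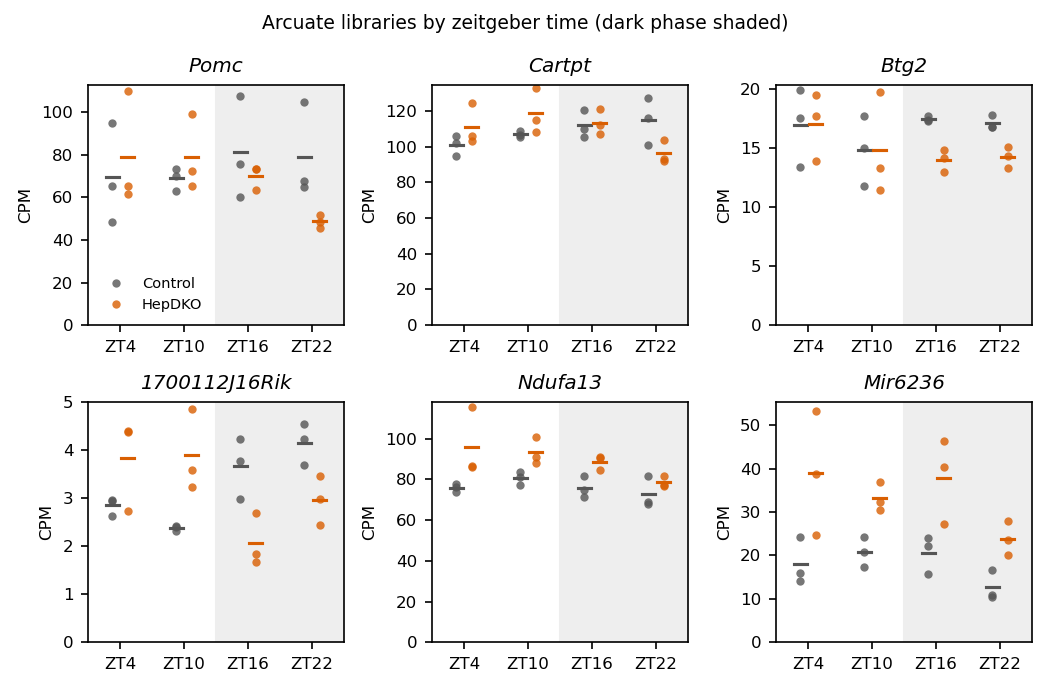
CPM of 6 genes in the 24 arcuate libraries by zeitgeber time, with Control in grey and HepDKO in orange, a point for each library, a bar for each group mean of 3 and the dark phase shaded. Pomc is lower in HepDKO at ZT22, 1700112J16Rik lies on opposite sides of Control in the light and the dark, and Mir6236 is higher in HepDKO at all 4 times.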

How the data were processed

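RNA of arcuate micropunches was sequenced by Novogene, per the labels' protocols. The authors deposited raw counts for 25229 gene symbols, of which 25031 matched RefSeq names. FastQC 0.11.7, Trim Galore 0.6.10, STAR 2.7.10b and build mm10 are named in the submitters' processing notes. The counting tool, the annotation and the use of strand are not given in the sources used here.

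From the deposited counts, genes were filtered with edgeR's filterByExpr on the 4 groups, and 15734 remained. Libraries were scaled by TMM and fitted with edgeR 4.0.16 (robust quasi-likelihood, limma 3.58.1, R 4.3.3), with genotype and time point as terms. Effects at each time used 4 group means, and dark minus light used 8 group means of 24 libraries. Benjamini-Hochberg adjustment ran over all genes tested, at a threshold of 0.05. Printed CPM are TMM-scaled counts relative to a library total of 1000000 (light-phase values from the 24-library scaling), except summed marker levels and the single-library values of Avp, Oxt and Vip, which are unscaled CPM. Standard errors and 95% intervals came from the quasi-likelihood fit. Depth was 15483922 to 18180348 counts per library.

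Named genes were Nr1d1, Nr1d2, the 12 of lowest p in each direction, the 3 of lowest p in each other comparison, and up to 4 of lowest p in each list with Agrp, Npy, Pomc and Cartpt. Arntl, Lepr, genes without overlap of 6 against 6 libraries, motif-bearing clock genes, Insr, Hpca, Sgk1, Fkbp5, Tsc22d3, Plin4, Cdkn1a, Npas4, Ghsr, Acta2, Tagln, Pdgfrb, Rgs5 and the cell type markers given for single libraries were added after values were seen. Some genes and sequences are not reported here. The samples compared, the lists and the tests were chosen with earlier results of these data known, so lists are described by counts and medians with no test. Of 20 pathway lists, that of mitochondrially encoded genes matched 0 symbols. The fit was tested on simulated data. DESeq2 1.42.0, limma-voom, 1 surrogate variable (sva 3.50.0), RLE factors, other filters, no time term, all 24 libraries, ribosomal RNA-like symbols left out, a replicate block and leaving out each library were alternatives.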

Additional observations from a re-analysis of the deposited data

How the results depend on the processing

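Of the values for single genes, 1096 neither turned nor crossed the threshold under alternatives other than leaving out a library. The 3 exceptions were Ppfia4 and Mir6236, with adjusted p of 0.00758 each, and 1700112J16Rik in dark minus light, with 0.00564, all past the threshold in DESeq2. Genes past the adjusted threshold in the dark phase numbered 2 with DESeq2 and 0 to 1 with a library left out. In dark minus light they numbered 1 with DESeq2 and 0 to 1 with a library left out. Counts at an unadjusted p under 0.05 moved by over 1.5 times in few settings. The dark-phase count was 1191 with 1 surrogate variable, and ZT22 minus ZT16 had 220 with the filter of at least 5 CPM in 3 libraries. With a library left out, counts ran from 335 to 840 at ZT16 (840 without Control ZT16 replicate 1), from 440 to 1069 at ZT22 (1069 without Control ZT22 replicate 3), from 271 to 611 for ZT22 minus ZT16 (611 and 527 without those libraries) and from 463 to 991 for dark minus light (991 and 919 without HepDKO ZT4 replicates 1 and 2). The cause was not tested.

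Agrp and Nr1d1, with estimates near 0, changed sign with a library left out. Agrp ran from -0.045 to 0.11 (lowest without HepDKO ZT16 replicate 2; also -0.041, -0.026 and -0.0070), and Nr1d1 from -0.037 to 0.047 (lowest without Control ZT16 replicate 3; also -0.013, -0.012, -0.0039 and -0.00036). The median of the glucocorticoid list ran from -0.46 (without Control ZT22 replicate 3) to -0.16 (without Control ZT22 replicate 1).

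Replicate numbers did not pair the samples. Correlations of same-numbered libraries ran from -0.14 to 0.0745 over 6 pairs, and 3 of 12 libraries correlated best with their own number. With a replicate block 0 genes passed the adjusted threshold and 825 had an unadjusted p under 0.05 in the dark phase.

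With 6 pooled libraries of each genotype, dark-phase estimates had a median standard error of 0.0730 on the log2 scale. For 84.9% of genes the 95% interval lay within 1.5-fold. With 3 libraries of each genotype, the median standard error was 0.104 at ZT16 and 0.105 at ZT22. There the interval lay within 1.5-fold for 77.1% and 76.4% of genes.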
